A study of Mus musculus with 6 samples.

Results

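Interferon-stimulated effector genes are the genes that a cell switches on after interferon has bound its receptor, and those examined here lie outside the IFIT, OAS, GBP, IRG, PARP and IFITM families. The list held 39 genes, taken by symbol and not by a cut on their values, though with earlier results of these data known. Of these, 38 were measured among the 18193 genes tested. Ifi44 had no probe set assigned to it alone and was not analysed here. RNA came from ovarian secondary follicles of female C57BL/6J mice, with no treatment named, 3 samples from young mice at 9 weeks and 3 from old mice at 32 weeks. A secondary follicle is an oocyte enclosed by several layers of granulosa cells, and the follicles were dissected whole with needles, so each sample mixes the cell types of the follicle and of any tissue left on it. How many mice or follicles a sample stands for is not stated, and the p-values therefore measure the spread between these samples. Where several probe sets matched a gene, the one brightest on average across the 6 arrays stood for it, and values are log2 of the deposited RMA intensity. A gene was said to rise or fall at an adjusted p of at most 0.05 (limma, Benjamini-Hochberg over all genes tested), and it was called when its fold was also at least 2.

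Type I interferons signal through the receptor chains IFNAR1 and IFNAR2 and the kinases JAK1 and TYK2, and the response runs through the interferon-stimulated response element in promoters. Interferon gamma acts through JAK1 and JAK2, and its response runs through the gamma-activated site. The proteins made in response include GTPases and nucleases that block viruses, ubiquitin ligases and adaptors that tune the signal, scaffolds of nuclear bodies, and proteins of cell death and immune recognition.

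Of the 38 measured genes, 29 rose in the secondary follicles from old mouse ovaries and none fell. That is 76.3% of the measured genes, where 10.1% of all genes tested rose and 13.3% fell. At an unadjusted p under 0.05, limma placed 30 higher and 1 lower. The share of all genes at that unadjusted limit was not counted, here or below. The called genes numbered 12, or 31.6%, against a background of 0.638% called higher, and none was called lower, against 0.126%. Another 17 genes rose by less than a fold of 2, 10 of them by at least 1.5. The median log2 fold change of old minus young was 0.68 over the 38 genes and 0.00 over all genes tested, whose 5th and 95th percentiles were -0.39 and 0.38. In each of the 29 genes that rose, every old array lay above every young array, which held for 18.9% of all genes. In 1 gene, Azi2, every old array lay below every young array, as in 23.7% of all genes, and in the other 8 the groups overlapped. The mean log2 intensity over the 38 genes was 6.38, 6.39 and 6.34 on the young arrays and 7.17, 7.21 and 7.22 on the old arrays, so no single array carried the difference.

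**Figure D1:**
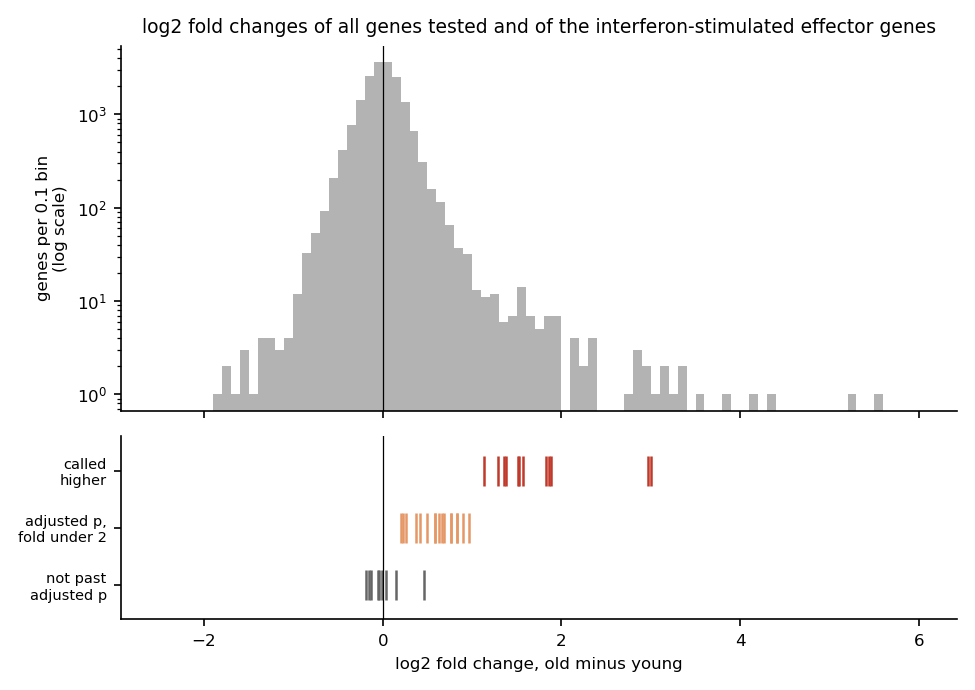
The upper panel counts all 18193 genes tested by log2 fold change of old minus young (bins of 0.1, log axis), and the lower panel marks each of the 38 interferon-stimulated effector genes. The 12 called genes lie between 1.14 and 3.0, the 17 that rose under a fold of 2 between 0.20 and 0.96, and the 9 that did not pass between -0.18 and 0.46.

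Values that moved with age outside the interferon genes are given here because they stand beside every result below. The 3' minus the 5' probe set of Gapdh was 0.47 ± 0.014 on the young and 1.51 ± 0.0048 on the old arrays, and that of beta-actin was 1.48 ± 0.033 and 2.53 ± 0.050 (log2, SD, n = 3 arrays each; exact two-sided permutation test, p = 0.1 for each, the smallest that 3 against 3 can give). This gap between the ends of a transcript serves as an array control for RNA quality. For both transcripts every old array lay above every young array. RNA quality and age therefore cannot be separated in any fold change given here. Of 25 macrophage and dendritic cell markers, 15 rose and 1 fell, with a median of 0.40, and their summed intensity was 745.8 to 767.5 on the young and 1146 to 1197 on the old arrays. Ctss, Mpeg1, Cd52 and Ms4a7 were called, at 1.36, 1.30, 1.26 and 1.06, and Lyz2 fell by 0.32. Ptprc, the pan-leukocyte marker, rose from 3.91 to 4.73, and Adgre1, the F4/80 antigen of macrophages, was at 3.31 and 3.51 without passing (adjusted p = 0.25 from limma). Of 8 granulocyte markers 3 rose, with S100a8 called at 1.34, and of 13 lymphocyte markers 1 rose and 1 fell. Of 12 theca and stroma markers 7 rose and 1 fell, with Star and Cyp11a1 called at 1.87 and 1.34, and of 11 endothelial markers 5 rose and 1 fell. Of 3 measured erythrocyte markers 2 rose. Of 14 granulosa cell markers 2 rose and 3 fell, with Amh at 10.04 and 9.86 and Fshr at 7.88 and 8.04, while 10 of 14 oocyte markers fell, among them Gdf9 by 0.20 and Zp3 by 0.54. In whole follicles, fewer cells of a type and less RNA per cell cannot be told apart. The part of these differences in the results on the interferon-stimulated effector genes was not tested.

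**Figure D2:**
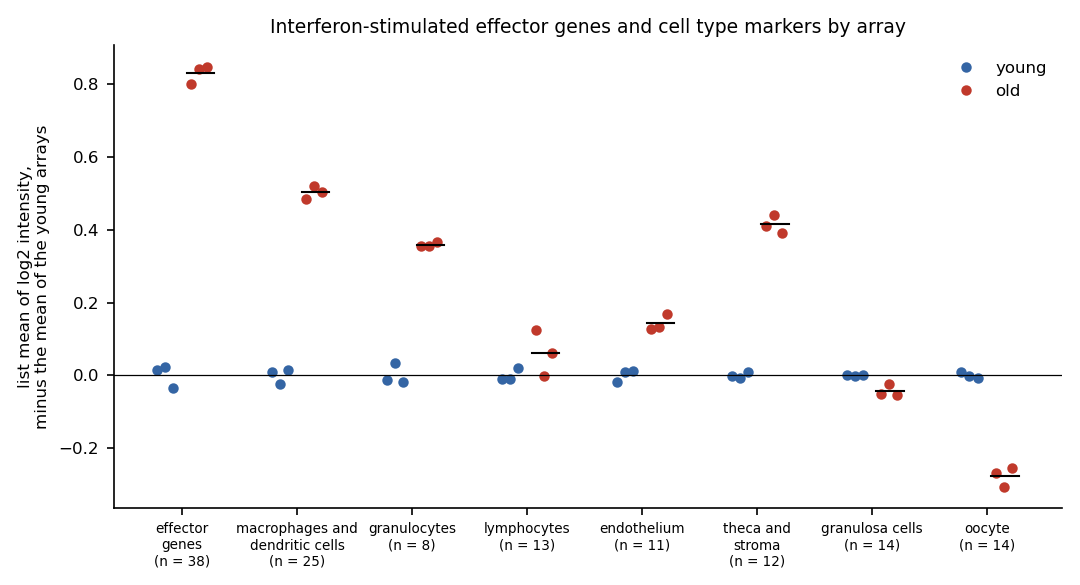
The mean log2 intensity of each gene list on each array, minus the mean of the 3 young arrays (vertical axis), for the 38 interferon-stimulated effector genes and 7 lists of cell type markers. Each point is an array and each line the mean of the old arrays, and the 3 old arrays stand furthest above the young ones for the interferon genes and below them for the oocyte markers.

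Promoter sequences of RefSeq (GRCm38.p6) were held for 34 of the 39 listed genes, each as a window from 250 bases before to 50 bases after an annotated transcript start, and those of Rtp4, Mx1, Mx2, Tor3a and Trim14 were not used here. The core of the interferon-stimulated response element, a pair of GAAA blocks with any 2 bases between them (GAAA, NN, GAAA) on either strand, was found in 8 of the 34 genes (23.5%) and in 3.99% of all 27025 genes with such windows. It was found in 3 of the 10 called genes with a window (Lgals9, Slfn8 and Trim30a) and in 5 of 23 other measured genes (Ogfr, Rbm43, Slfn5, Trim21 and Trim26). The core of the gamma-activated site, TTCNNNGAA, which reads the same on both strands, was found in 2 of the 34 genes (5.88%), Ifi35 and Isg20, and in 9.55% of all genes. These are matches of letters with no test, and the arrays did not measure binding. The stretches below show 120 bases that end just before the start (for Trim26, bases -209 to -90), on the gene's own strand and with the response element core in capitals, for the 3 called genes that held it, for Trim26, which held a pair of overlapping cores and did not pass, and for Xaf1, which had a high fold change and no match to these letters in its window.
Lgals9 (chr11:78984925-78985044, minus strand): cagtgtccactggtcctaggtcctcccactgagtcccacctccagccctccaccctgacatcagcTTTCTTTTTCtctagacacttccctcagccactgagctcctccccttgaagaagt
Slfn8 (chr11:83020811-83020930, minus strand): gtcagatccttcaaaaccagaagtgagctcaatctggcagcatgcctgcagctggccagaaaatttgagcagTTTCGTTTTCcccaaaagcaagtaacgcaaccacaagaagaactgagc
Trim30a (chr7:104465194-104465313, minus strand): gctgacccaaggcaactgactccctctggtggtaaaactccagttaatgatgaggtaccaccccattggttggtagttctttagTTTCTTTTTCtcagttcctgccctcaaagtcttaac
Trim26 (chr17:36836937-36837056, plus strand): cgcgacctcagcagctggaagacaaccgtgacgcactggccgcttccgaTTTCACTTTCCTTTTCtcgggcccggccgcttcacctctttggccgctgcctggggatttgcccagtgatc
Xaf1 (chr11:72301509-72301628, plus strand): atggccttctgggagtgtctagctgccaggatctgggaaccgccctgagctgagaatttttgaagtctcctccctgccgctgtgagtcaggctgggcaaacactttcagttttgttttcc
In these stretches the core began at -55 in Lgals9, -48 in Slfn8 and -36 in Trim30a, where 0 is the first transcribed base. The cores of Trim26 began at -160 and -154. From another annotated start the Slfn8 site was at -136, and further cores began at 15 in Lgals9 and 2 in Trim30a. Of the other genes with a core, Rbm43 (-224 and -218), Trim21 (13 and 19) and Ogfr (31) rose, and Slfn5 (-155) did not pass.

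**Figure D3:**
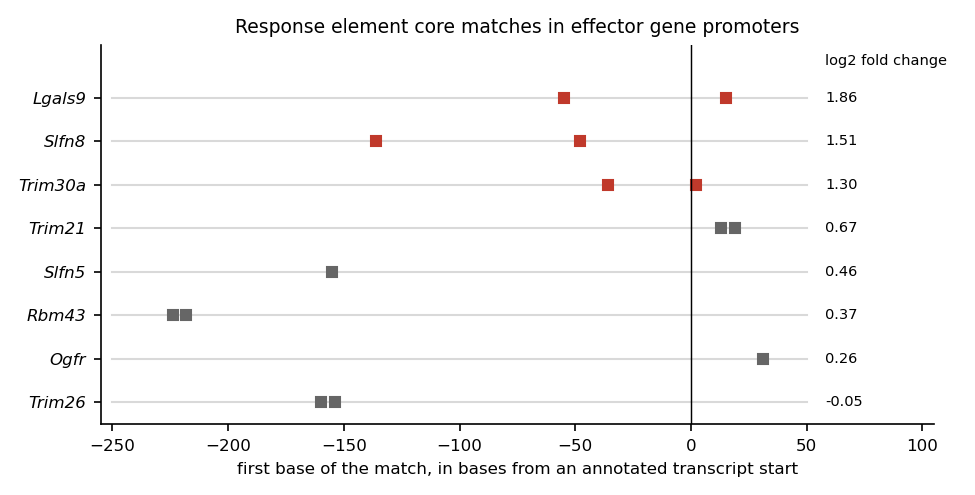
Distance in bases from an annotated transcript start (horizontal axis) to the first base of each response element core in the 8 genes that held it, with the log2 fold change of old minus young at the right and the called genes in red. The marks of Slfn8 are 1 site seen from 2 annotated starts, and those of Trim30a come from 2 starts with a site each.

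Rtp4 and Xaf1 had the highest fold changes of the list, at 12th and 13th place among all 18193 genes. Rtp4, a chaperone that helps certain receptors reach the cell surface, was at 6.63, 6.72 and 6.38 on the young arrays and 9.49, 9.60 and 9.64 on the old arrays. All 3 old values stood over 2 log2 units above the highest young one, and the log2 fold change was 3.0 (standard error 0.095, adjusted p = 3.8e-06 from limma). A dimmer probe set of Rtp4 gave 1.28 and was called as well. Xaf1 encodes a partner of the caspase inhibitor XIAP that favours cell death. It was at 6.13, 5.85 and 5.70 on the young arrays and 8.92, 8.85 and 8.82 on the old arrays. The old arrays were closer to each other (SD 0.048) than the young ones (SD 0.22), and the difference was 2.97 (standard error 0.11, adjusted p = 6.5e-06). The dimmer probe set of Xaf1 rose by 0.48, from 3.94 to 4.43, and was not called.

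The other cell death genes rose together with Xaf1 and by less. Casp4, the caspase that detects bacterial lipopolysaccharide in the cytosol, was at 3.60, 3.48 and 3.33 on the young and 4.25, 4.46 and 4.37 on the old arrays, a difference of 0.89 (95% confidence interval 0.69 to 1.10). Mlkl, the membrane-permeabilizing effector of necroptosis, was at 4.99, 5.0 and 5.0 on the young and 5.60, 5.69 and 5.59 on the old arrays. The young values of Mlkl hardly differed (SD 0.0098), and its difference was 0.63. Neither gene reached a fold of 2. Casp4, like Mx1 and Slfn2 below, was dim in both groups, under the median of all probe sets on each array (4.93 to 4.95).

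**Figure D4:**
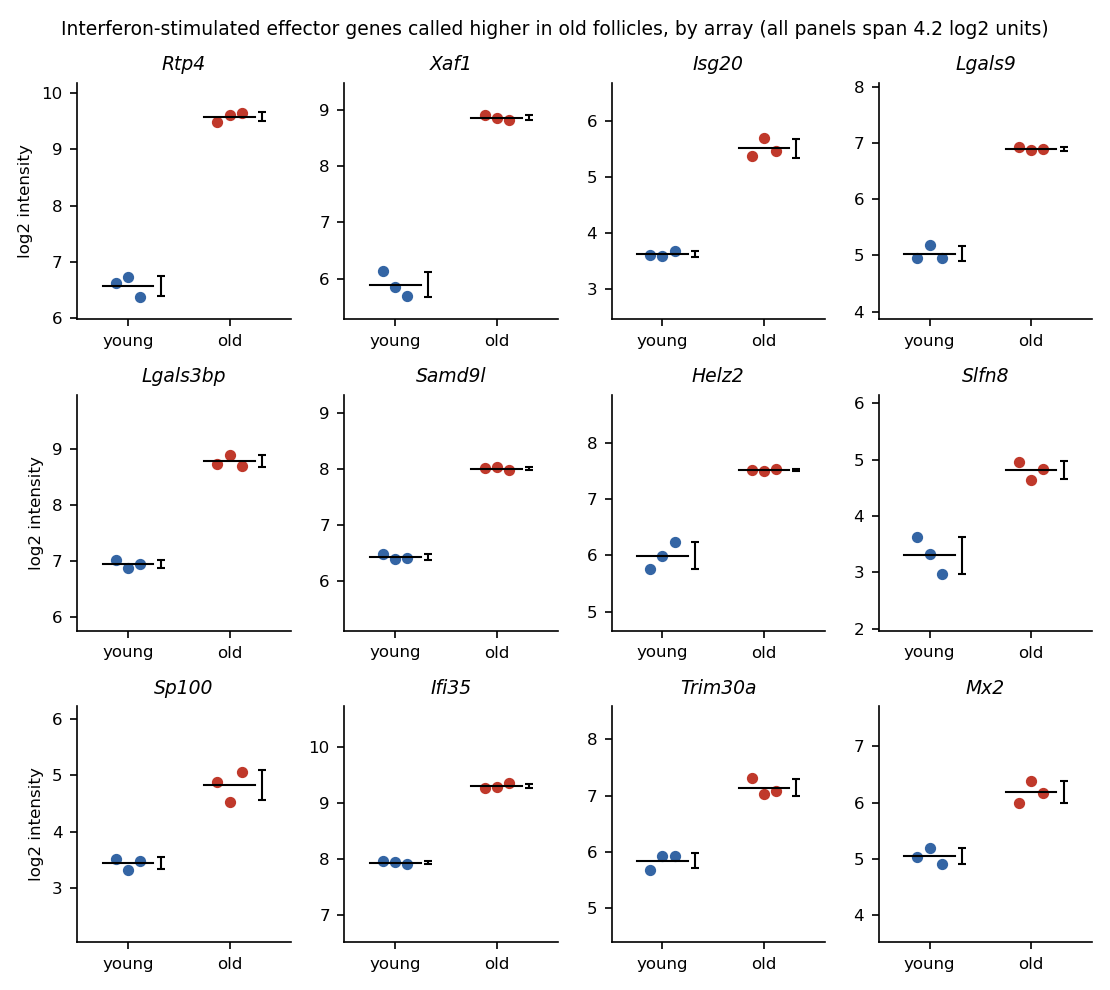
Log2 intensity (vertical axis) of the 12 called genes on each of the 3 young (blue) and 3 old (red) arrays, with a horizontal line at the group mean and a bar of 1 SD on either side. Every panel spans the same number of log2 units, and in each of the 12 genes the lowest old array is above the highest young array.

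Both surface or secreted lectin-related genes were called. Lgals9, which encodes the sugar-binding protein galectin-9, was at 4.95, 5.19 and 4.96 on the young and 6.92, 6.87 and 6.89 on the old arrays. Its promoter window held the response element core shown above, and its log2 fold change was 1.86 (standard error 0.075, adjusted p = 1.1e-05 from limma). Lgals3bp, whose secreted glycoprotein binds galectin-3, was at 7.02, 6.88 and 6.94 on the young and 8.73, 8.89 and 8.70 on the old arrays, a difference of 1.83. Cd274 encodes the immune checkpoint ligand PD-L1. It went from 4.58, 4.65 and 4.57 to 5.32, 5.29 and 5.24, which was a rise of 0.68 (95% confidence interval 0.56 to 0.81) and under a fold of 2. Ifi30, a lysosomal thiol reductase of antigen processing, rose by 0.20, from 8.47 ± 0.0097 to 8.68 ± 0.044 (SD, n = 3 each). Its adjusted p was 0.026, and it was above 0.05 (at most 0.078) when any 1 of the 6 arrays was left out. Leukocytes also express these 4 genes, and 15 of the 25 macrophage and dendritic cell markers rose in the same samples, while 1 fell and 9 did not pass. Which cells the transcripts of the 4 genes came from was not tested.

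Of the 5 enzymes that act on nucleic acids or nucleotides, 3 rose and 2 of these were called. Znfx1 and Pnpt1 did not pass at the probe sets that stood for them. Isg20, an exonuclease that degrades RNA from its 3' end, was at 3.61, 3.59 and 3.68 on the young and 5.37, 5.70 and 5.45 on the old arrays, a difference of 1.88 (standard error 0.088, adjusted p = 2.6e-05 from limma). Helz2, a helicase that acts as a coactivator of nuclear receptors, was at 5.76, 6.00 and 6.24 on the young and 7.52, 7.50 and 7.54 on the old arrays, a difference of 1.52. The young arrays spread more widely for Helz2 (SD 0.24) than the old arrays (SD 0.017), yet the lowest old value was well above the highest young one. Cmpk2, a mitochondrial nucleotide kinase, rose by 0.83 (6.38 to 7.21), with its dimmer probe set at 0.21 and not past the threshold. Znfx1, a helicase that senses double-stranded RNA, differed by 0.04 (95% confidence interval -0.20 to 0.28). Pnpt1, the mitochondrial polynucleotide phosphorylase, differed by -0.01 (-0.15 to 0.14) at its brightest probe set, and its next probe set rose by 0.44, from 6.22 to 6.66. For Znfx1 the interval leaves no room for a fold of 2 at this probe set.

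All 4 large GTPases and ATPases rose, and 1 of them was called. Mx2, a dynamin-like antiviral GTPase, was at 5.04, 5.19 and 4.92 on the young and 5.99, 6.38 and 6.18 on the old arrays. Its log2 fold change of 1.14 (adjusted p = 8.2e-04 from limma) was the lowest among the called genes, and its 95% confidence interval of 0.87 to 1.40 spanned a fold of 2. The torsin gene Tor3a lay just outside at 0.96, which is a fold of 1.95. It was at 4.68, 4.85 and 4.87 on the young and 5.77, 5.71 and 5.81 on the old arrays, and its next probe set also gave 0.96. Mx1 was at 3.66, 3.68 and 3.55 on the young and 4.33, 4.50 and 4.53 on the old arrays, a rise of 0.83. The C57BL/6 strain is known to carry defective alleles of both Mx genes, and these arrays measured transcripts only. Rnf213, a giant ubiquitin ligase with an ATPase motor, rose from 10.60 to 11.18, a difference of 0.58 with an SD of 0.089 and 0.027. Its dimmer probe set was at 4.71 and 4.51 and did not pass.

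Of the 5 tripartite motif genes, which encode ubiquitin ligases and related adaptors, 4 rose and Trim26 did not pass. Trim30a restrains Toll-like receptor signaling to NF-kappa-B. It was at 5.68, 5.93 and 5.92 on the young and 7.31, 7.03 and 7.07 on the old arrays, a difference of 1.30 (standard error 0.098, adjusted p = 2.5e-04 from limma). A dimmer one gave 1.76, more than the brighter, and mouse Trim30a has close relatives whose transcripts the probes may also bind. Trim25, the ligase that activates the RNA sensor RIG-I, rose in all 3 of its probe sets, by 0.76, 0.54 and 0.47. At the brightest it was at 9.51, 9.49 and 9.45 on the young and 10.18, 10.30 and 10.27 on the old arrays. Trim21, a cytosolic antibody receptor and ligase, rose by 0.67, but its dimmer probe set was at 3.98 in both groups. Trim14, an adaptor of the mitochondrial antiviral protein MAVS, rose by 0.49. Trim26 was at 8.41 and 8.36, a difference of -0.05 with a 95% confidence interval from -0.22 to 0.12. It held a pair of overlapping cores before its start, as did Rbm43, which rose by 0.37.

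In the Schlafen family and Samd9l, 3 of 4 genes rose and 2 were called. Samd9l, which restrains cell growth and virus replication, was at 6.49, 6.40 and 6.42 on the young and 8.01, 8.03 and 7.97 on the old arrays. The replicates of each age lay within 0.1 of each other, and the difference was 1.57 (standard error 0.053, adjusted p = 4.6e-06 from limma). Slfn8 was at 3.62, 3.32 and 2.97 on the young and 4.96, 4.65 and 4.83 on the old arrays. Its young arrays had the widest spread of any called gene (SD 0.33), and its difference was 1.51 (95% confidence interval 1.13 to 1.89). Slfn8 has near-identical neighbours in the mouse whose transcripts the probes may also bind, which was not tested. Slfn2, which keeps lymphocytes quiescent, rose by 0.76. Slfn5 was at 3.34, 3.70 and 3.82 on the young and 4.01, 3.80 and 4.42 on the old arrays, and the groups overlapped. Its difference of 0.46 did not pass (adjusted p = 0.11), although a dimmer probe set rose by 0.58.

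Of the 5 adaptors and modifiers of signaling, 3 rose and the other 2, Azi2 and Usp25, did not pass. Ifi35 and Nmi encode proteins that bind each other, and Nmi also binds STAT factors. Ifi35 was at 7.96, 7.95 and 7.91 on the young and 9.27, 9.28 and 9.35 on the old arrays, a difference of 1.36 (standard error 0.051, adjusted p = 8.5e-06 from limma). Ifi35 had 2 further probe sets, at 1.33, which was called, and at 0.86. Nmi was at 7.41, 7.32 and 7.31 on the young and 7.86, 8.04 and 7.92 on the old arrays, a rise of 0.59. Trafd1, a brake on Toll-like receptor signaling, rose by 0.22, from 8.20 to 8.42. Its adjusted p of 0.024 ranged from 0.026 to 0.080 when 1 array was left out, and was above 0.05 in 5 of these 6 fits. Azi2, an adaptor of the kinase TBK1, was at 8.67, 8.67 and 8.66 on the young and 8.44, 8.53 and 8.58 on the old arrays. The difference of -0.15 had an unadjusted p of 0.030 and an adjusted p of 0.094. The deubiquitinase gene Usp25 was at 6.99, 7.06 and 7.02 on the young and 7.02, 6.79 and 6.71 on the old arrays, a difference of -0.18 (adjusted p = 0.16). Without old replicate 1 it was at -0.27 and fell (adjusted p = 0.032).

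Of the nuclear body genes, Sp100 was called, Pml rose, and Sp110 and Daxx did not pass. Pml builds the scaffold of these bodies, and Sp100 and Daxx are resident proteins, the latter a histone chaperone. Sp100 was at 3.52, 3.33 and 3.48 on the young and 4.89, 4.53 and 5.05 on the old arrays, a difference of 1.38 (standard error 0.13, adjusted p = 6.6e-04 from limma). Sp100 also had a probe set that was the brighter one on the young arrays, which rose by 0.70 and was not called. Pml was at 7.17, 7.24 and 6.97 on the young and 7.49, 7.57 and 7.59 on the old arrays, a rise of 0.42, with its other probe sets at 0.38 and -0.03. Daxx was at 8.52, 8.33 and 8.44 on the young and 8.56, 8.70 and 8.47 on the old arrays. Those groups overlapped, and the difference was 0.15 (95% confidence interval -0.04 to 0.33). Sp110 was at 6.30 and 6.26, a difference of -0.04 at its brightest probe set, while its dimmest probe set rose by 0.28.

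Of the remaining genes, Rbm43, an RNA-binding protein gene, rose by 0.37 (7.87 to 8.25), and Ogfr, the opioid growth factor receptor, rose by 0.26 (8.51 to 8.77). The adjusted p of Ogfr was 0.021, and it was above 0.05 (at most 0.062) in 4 of the 6 fits with 1 array left out. The dimmer probe set of Ogfr fell by 0.24. Epsti1 was at 6.54, 6.58 and 6.61 on the young and 6.29, 6.48 and 6.55 on the old arrays, with overlapping groups and a difference of -0.14 (95% confidence interval -0.31 to 0.04). A dimmer probe set of Epsti1 was at 4.58, 4.48 and 4.17 on the young and 3.36, 3.81 and 3.79 on the old arrays and fell by 0.75 (adjusted p = 0.010 from limma over 34945 probe sets). It was the only probe set of the list besides that of Ogfr to fall.

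**Figure D5:**
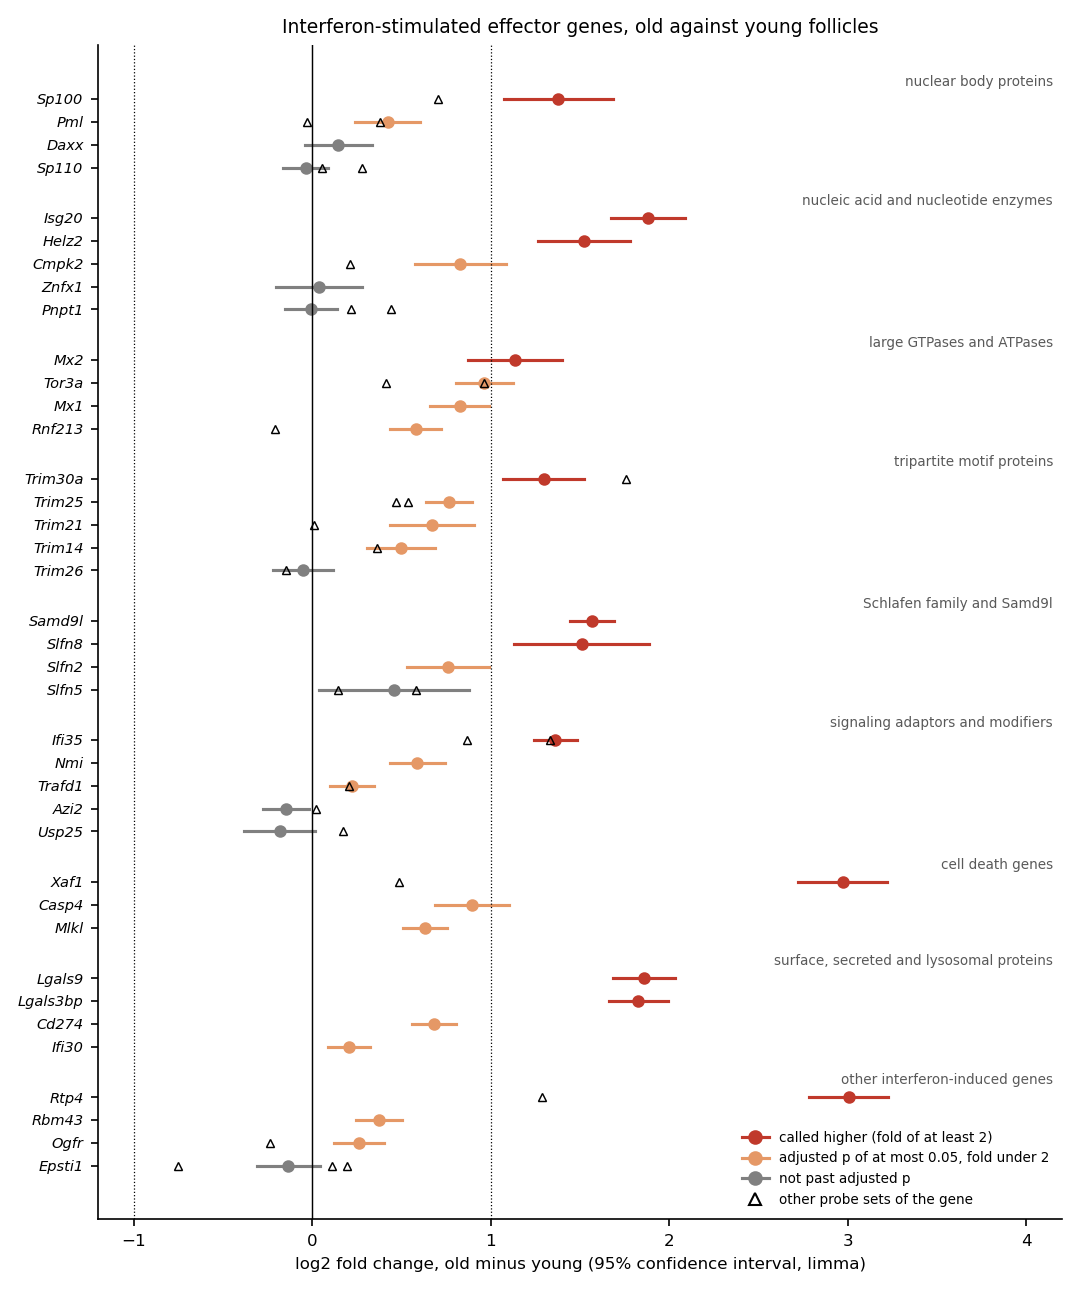
Log2 fold change of old minus young (horizontal axis) with its 95% confidence interval for the 38 measured genes, grouped by role, with dotted lines at a fold of 2 in either direction. Triangles are the 30 other probe sets of the same genes, and 19 of these 30 lie at or below the value of their gene's brightest probe set.

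The 38 genes were covered by 68 probe sets, and 21 genes had more than 1. Of the 30 probe sets that did not stand for their gene, 15 rose, 2 fell and 13 did not pass, and 3 of the 15 were called. Of the 12 called genes, 5 had a second probe set (Rtp4, Xaf1, Ifi35, Trim30a and Sp100), and in all 5 the second brightest also rose, with 3 called. The other 7 called genes rest on a single probe set. The position of each probe set in its transcript was not analysed here. On the same arrays, the old minus young difference in the 3' minus 5' measure was 1.04 for Gapdh and 1.05 for beta-actin.

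Genes of interferon signaling itself, from the ligands to the negative regulators, were measured on the same arrays. Of 10 measured interferon genes, none was called by limma and 2 were higher at an unadjusted p under 0.05. Ifnb1 was at 3.23 and 3.11 and Ifng at 1.96 and 1.94 in young and old samples, with overlapping groups. The 25th percentile of all probe sets was 3.13 to 3.24 across the 6 arrays. Ifnb1 was thus near that dim end and Ifng below it, where the arrays may miss a change in these transcripts. Ifnz, at 5.02 and 5.98, and Ifna2, at 3.24 and 3.77, rose by 0.96 and 0.53, and these were named after their values were seen. Interferon genes of these types have close copies that the probes may also bind. Of 9 receptor chains and Janus kinases none rose (limma, 3 higher at an unadjusted p under 0.05), with Ifnar1 at 7.38 and 7.44, and Ifnar2 fell by 0.20 (adjusted p = 0.045 from limma). Among 10 measured STAT and IRF factors, Irf7 was called at 2.33 and Irf9 at 1.14, while Stat2 differed by 0.18 and did not pass (adjusted p = 0.29). Of 7 negative regulators, Usp18, which removes ISG15 and blocks the receptor, was called at 4.14 and Socs3 at 1.08, Ptpn6 rose by 0.23, and Socs1 fell by 0.55. Over these 36 pathway genes 7 rose and 2 fell (4 called, none lower), with a median of 0.05, beside the 10.1% of all genes that rose, the 13.3% that fell and the 0.638% called higher.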

How the data were processed

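The authors processed the scanned Affymetrix mouse genome arrays with RMA, whose version the sources used here do not give, and deposited intensity values on a linear scale, from 2.62 to 13880. Log2 values had been planned for, and the deposited intensities were therefore put on the log2 scale here, without a pseudocount. Probe sets with several gene symbols (932) or none listed (9160), and 64 control probe sets, were left out, and symbols of the other 34945 were updated by gene ID with RefSeq names (99.1% matched). Old and young samples were compared by moderated linear models (limma 3.58.1, R 4.3.3; two-sided), with Benjamini-Hochberg adjustment across the 18193 genes. The fold of 2 and the limit of 0.05 are the study's, whose SAM test was not run here. The 39 genes, the gene lists, the motifs and the alternatives were chosen with earlier results of these data known. Values per array are given for the called genes and for Mx1, Pml, Daxx, Cd274 and Trim25. They are also given for Casp4, Mlkl, Tor3a, Nmi, Slfn5, Azi2, Usp25 and Epsti1, chosen after their values were seen. Pathway and marker genes are named where called or where they define a cell type or signal. The steps were tested on simulated data. No depth applies to arrays, and 3 per group limit the precision.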

Additional observations from a re-analysis of the deposited data

How the results depend on the processing

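The alternatives were other choices of probe set, leaving out dim genes, other normalizations, priors and array weights, a fold minimum of 1.5, the replicate number as a block, and each sample left out in turn. All 12 called genes were also called under each of them, except in 3 rules for probe sets or dim genes. Without the probe sets shared between transcripts, 7 were called. Helz2, Isg20, Lgals9 and Trim30a had no probe set left under this rule, and Ifi35 was at 0.86. The same rule called 1 pathway gene, against 4, but only 27 of the 36 pathway genes were tested under it. Irf7 and Irf9, whose only probe sets it removed, were among those not tested. With a mean log2 intensity of at least 5, the called genes Isg20, Slfn8 and Sp100 were not tested. Casp4, Cd274, Mx1 and Slfn2, which rose without being called, were not tested either. With the brightest probe set on the young arrays alone, chosen after seeing the data, Sp100 was at 0.70 and not called, and 1 pathway gene, Jak1, was called lower. A fold minimum of 1.5 called 22 genes of the list and 10 macrophage and dendritic cell markers.

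None of the list fell in the main comparison, but 1 did with the filter on dim genes (Azi2), 1 with a trended and robust prior (Azi2) and 0 to 1 when a sample was left out (Usp25, without old replicate 1). Leaving out a sample gave 26 to 27 genes that rose, and with all probe sets averaged Ogfr, Pml and Trafd1 did not pass. Some values near 0 changed sign. Sp110 was at 0.097 with all probe sets averaged, 0.054 without shared ones, 0.0027 after quantile normalization and 0.0076 after cyclic loess. Pnpt1 was at 0.22 (adjusted p = 0.022), 0.44 (adjusted p = 0.014), 0.058 and 0.063 in the same order, and 0.017 with array weights. Trim26 was at 0.014 after cyclic loess and Azi2 at 0.022 without shared probe sets. When 1 sample was left out, Pnpt1 ran from -0.042 to 0.037, Trim26 from -0.10 to 0.0038 and Znfx1 from -0.075 to 0.12. The cause of these differences was not tested.

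The labels number the replicates 1 to 3 in both groups without saying that a number pairs samples. Deviations from the group means correlated across genes at 0.05, 0.00 and 0.04 for same-numbered samples, and not every sample correlated best with its own number. With the replicate block, 12 genes were called and 27 rose, against 29, the 2 others being Ifi30 and Trafd1.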
